A study of Mus musculus with 18 samples.

Results

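The 10 mitochondrially encoded genes described here were taken by name from the gene table of a TT-seq series in E14 mouse embryonic stem (ES) cells. TT-seq labels newly made RNA for a few minutes with 4-thiouridine (4sU), a uridine analogue, and sequences the labelled RNA, so that a read count reports nascent transcription. The members are mt-Nd1, mt-Nd2, mt-Nd4, mt-Nd5, mt-Nd6, mt-Cytb, mt-Co1, mt-Co2, mt-Co3 and mt-Atp6, which are 10 of the 21859 protein-coding genes in the table and 10 of its 13 mitochondrial genes. All cells carried osTIR1, the plant F-box protein that directs auxin-dependent degradation, integrated at the Rosa26 locus. The series compared untagged cells with 2 homozygous SPT16-AID-V5 clones, in which both copies of Supt16h carry an auxin-inducible degron and a V5 tag. Each was treated for 24 h with 3-indoleacetic acid (IAA) or with 0.1% ethanol (EtOH), and then labelled with 4sU for 5 min. The 6 conditions had 3 libraries each, 18 in all. SPT16 was thus depleted in 2 conditions, the tagged clones in IAA, while the other 4 conditions were controls. Each tagged line is 1 clone, and all lines derive from 1 ES cell line grown in serum, LIF and 2 kinase inhibitors.

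SPT16 is a subunit of FACT, a histone chaperone that takes nucleosomes apart and puts them back as RNA polymerase passes. Mitochondrial DNA is a small circle with no histones, packaged by TFAM and transcribed by the single-subunit polymerase POLRMT. Both of its strands are transcribed into long RNAs that are cut into single messages, largely at the tRNAs between them. Its coding genes supply core subunits of the respiratory complexes and of ATP synthase, and the nucleus encodes all the other subunits. These genes therefore offer a nucleosome-free contrast within the same libraries.

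The value used is the authors' baseMean, a read count per gene after scaling for library size, averaged by them over control and SPT16-depleted libraries together. It is 1 value per gene with no replicate, so no mean ± SD can be given, neighbours in any order of levels below cannot be set against a spread, and no test was run. The change of these genes between EtOH and IAA was not analysed here, and the levels below do not separate the conditions, since the remaining columns hold the authors' own comparison. The depth of single libraries is unknown here. The table as a whole bore the marks of ES cells. The pluripotency factors Pou5f1, Sox2 and Nanog had a baseMean of 7585, 5985 and 14788, and Tfcp2l1, a factor of naive ES cells, was the 8th highest gene. The fibroblast markers Col1a1, Col1a2 and Thy1 lay between 9.17 and 25.7, and Pdgfrb lay at 952.

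The authors kept only reads with 1 alignment, and parts of the mitochondrial genome are also present on chromosomes. A search of the chromosomes of GRCm38 (mm10) found 44 such copies. The longest lies at chr1:24611535-24616188 on the minus strand and matches bases 6390 to 11042 of the mitochondrial genome. It aligned over 4654 bases at 99.94% identity, with 2 mismatches and 1 gap. It overlaps 7 annotated unprocessed pseudogenes, from Gm28439 to Gm29216, which are not protein-coding genes. The differences fell at mitochondrial position 6393 in mt-Co1, at 9461 in mt-Nd3 and at 9828 in the tRNA gene mt-Tr. The whole of mt-Co2, mt-Atp6 and mt-Co3 is therefore present on chromosome 1 without a single change. The first 60 bases of mt-Co2, with the start codon in capitals, show this identity in the mitochondrial genome (chrM:7013-7072, plus strand) and in the chromosome 1 copy.
mt-Co2, mitochondrial genome: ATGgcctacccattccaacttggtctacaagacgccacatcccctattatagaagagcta
mt-Co2, chromosome 1 copy: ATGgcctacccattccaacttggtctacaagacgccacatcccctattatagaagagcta
The stretch around position 9461 holds the only substitution inside the copy that lies away from its edge, and the differing base is in capitals in both (chrM:9431-9491, plus strand).
mt-Nd3 stretch, mitochondrial genome: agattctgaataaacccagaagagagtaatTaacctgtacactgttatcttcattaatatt
mt-Nd3 stretch, chromosome 1 copy: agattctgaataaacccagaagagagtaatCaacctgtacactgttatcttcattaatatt
The ends of the copy fall inside 2 members. The mitochondrial sequence is shown with the copied part in capitals, first across the start of the copy in mt-Co1 (chrM:6360-6419) and then across its end in mt-Nd4 (chrM:11013-11072), both on the plus strand.
mt-Co1, start of the copy: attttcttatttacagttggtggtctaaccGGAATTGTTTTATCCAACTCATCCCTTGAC
mt-Nd4, end of the copy: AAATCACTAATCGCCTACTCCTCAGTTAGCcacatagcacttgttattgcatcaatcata
A second copy at chr2:22587288-22590534, within the span of Myo3a, matches mitochondrial bases 4441 to 7699 at 97.36% identity, and the next longest at chr4:80002330-80005204 matches bases 12488 to 15359 at 93.01%.

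For each member, every window of 50 bases was searched for in the chromosome copies and in the rest of the mitochondrial genome. This served as a stand-in for reads that could be kept. In mt-Nd1, mt-Nd6 and mt-Cytb 100% of windows were found only in the mitochondrial genome. The share was 92.4% in mt-Nd5, 91.7% in mt-Nd2, 48.9% in mt-Co1 and 37.8% in mt-Nd4. In mt-Co2, mt-Atp6 and mt-Co3 it was 0%. Over the whole mitochondrial genome of 16299 bases, 64.2% of windows were found nowhere else.

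The members fell into 2 sets of very different level, and the sets were those with and without such windows. The 7 members with windows found only in the mitochondrial genome had a baseMean between 22215 and 90841. The 3 members without them had a baseMean between 103 and 216. The lowest of the 7 was 103 times the highest of the 3. The split was drawn after the values were seen, and the part of the discarded reads in it was not tested. The 3 mitochondrial coding genes that are not members also lie wholly in the chromosome 1 copy, and their baseMean was 1.53 for mt-Atp8, 13.7 for mt-Nd3 and 21.6 for mt-Nd4l. mt-Nd3, which holds the substitution shown above, kept 3 windows, 1.00% of its total.

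**Figure D1:**
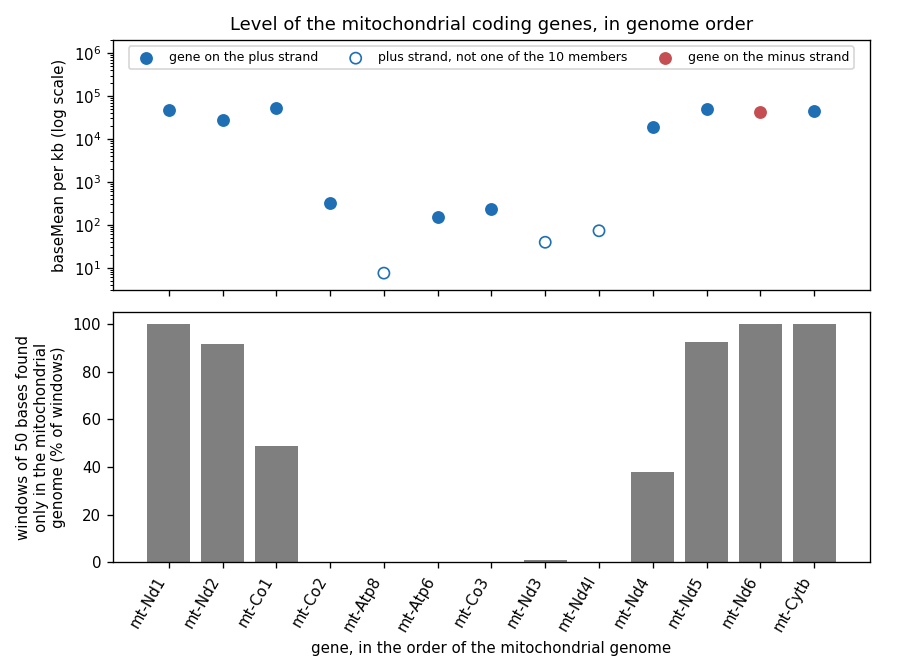
Top, baseMean per kb of gene (log scale) for the 13 mitochondrial coding genes in genome order, filled points being the 10 members and open points the other 3. Bottom, the percent of 50-base windows of each gene that occur only in the mitochondrial genome; the members from mt-Co2 to mt-Co3 have none and lie between 151 and 316 per kb, and the other 7 members lie between 18572 and 53415 per kb.

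Complex I, the NADH dehydrogenase that passes electrons to ubiquinone, has 5 of its core membrane subunits among the members. mt-Nd5 (chrM:11742-13565, plus strand) had a baseMean of 90841, the 3rd highest of all genes after the nuclear genes Kat6b and Cmss1. mt-Nd1 (chrM:2751-3707) had 44128 and ranked 51st, mt-Nd2 (chrM:3914-4951) had 28465 and ranked 179th, and mt-Nd4 (chrM:10167-11544) had 25592 and ranked 235th. mt-Nd6 (chrM:13552-14070), the single member on the minus strand, had 22215 and ranked 322nd. All 5 were thus among the highest genes of the table.

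These genes are short, and a count grows with length. On the scale of baseMean per kb, mt-Nd5 lay at 49803, mt-Nd1 at 46111, mt-Nd6 at 42804, mt-Nd2 at 27423 and mt-Nd4 at 18572. mt-Nd6, lowest of the 7 by count, was thus close to mt-Nd1 per kb although it is read from the opposite strand. Counted only over windows found in the mitochondrial genome alone, mt-Nd4 lay at 50980 per unique kb, between mt-Nd5 at 55391 and mt-Nd1 at 48599. mt-Nd2 was then the lowest of the 7, at 31384 per unique kb.

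mt-Cytb (chrM:14145-15288, plus strand) encodes cytochrome b, the one mitochondrial subunit of complex III, which passes electrons from ubiquinol to cytochrome c. Its baseMean was 50734, rank 35, and its level was 44348 per kb, the median of the 7.

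Complex IV, cytochrome c oxidase, takes its 3 catalytic core subunits from the mitochondrial genome, and these 3 members differed most. mt-Co1 (chrM:5328-6872, plus strand), which holds the site of oxygen reduction, had a baseMean of 82526, rank 4, and the highest level of any member at 53415 per kb. mt-Co2 (chrM:7013-7696), which receives electrons from cytochrome c, had a baseMean of 216, rank 11348, and 316 per kb. mt-Co3 (chrM:8607-9390) had 186, rank 11614, and 237 per kb. Per unique kb mt-Co1 lay at 112895, above all other members, but this value moved between 82526 with windows of 100 bases and 135734 with windows of 36 bases. The whole of mt-Co1 lies within the chromosome 2 copy described above. No level per unique kb exists for mt-Co2 and mt-Co3.

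mt-Atp6 (chrM:7927-8607, plus strand) encodes the subunit that, with a ring of nuclear-encoded subunits, forms the proton channel of ATP synthase. It was the lowest member, with a baseMean of 103, rank 12486, and 151 per kb. Its first bases overlap the end of mt-Atp8, and over the bases shared with no other gene its level was 162 per kb.

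Together the 10 members held 0.617% of the summed baseMean of all genes. Of the members' own sum of 345006, mt-Nd5 held 26.3% and mt-Co1 23.9%, and the 3 members without unique windows together held 0.146%. Between the 7 members with unique windows the highest level per kb was 2.88 times the lowest. Between all 10 it was 353 times.

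4sU enters RNA in place of uridine, so the uridine content of a message bears on how often it is labelled. The 9 members on the plus strand had between 27.4% and 31.2% uridine, with a median of 29.5%. mt-Nd6 had 43.7%. Only 14 of 17651 nuclear genes with a baseMean of at least 1 had more uridine than mt-Nd6, and the nuclear median was 25.2%. The high uridine of mt-Nd6 thus stood beside a level per kb within the range of the other 6, and the part of uridine content in that level was not tested.

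Nuclear genes of similar baseMean were taken as the 50 next above and the 50 next below each member, fewer where the table ended. For mt-Nd5, the nearest were Cmss1, at 106511, and Tead1, at 74117. The members differed from these genes first in length. None of the neighbours of the 7 members with unique windows had fewer exonic bases than the member. For mt-Nd6, with 519 bases, the neighbours ranged from 1881 to 23677 exonic bases with a median of 8458. The neighbours were matched on baseMean, so a ratio per exonic kb largely restates this difference in length and is not a separate result. Per exonic kb, the 7 members lay between 6.13 times (mt-Nd4) and 16.6 times (mt-Nd6) the median neighbour. mt-Nd2, mt-Nd4, mt-Nd6 and mt-Co1 lay above all of their neighbours, and mt-Nd1, mt-Nd5 and mt-Cytb lay above all but Cmss1, at 53336 per exonic kb. Cmss1 has 1997 exonic bases in a span of 305 kb. Per kb of whole gene span, 0 neighbours lay above any of the 7 members.

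mt-Co2, mt-Co3 and mt-Atp6 were set against much lower nuclear genes, and per exonic kb again lay above most. None of their windows of 50 bases was found only in the mitochondrial genome. How far their counts report their transcription is therefore unknown. mt-Atp6 lay at 5.30 times its median neighbour and above all 100 of them, among which Cacnb2 and Obox6 were nearest in baseMean, at 103.2 each. mt-Co2 lay at 4.88 times its median neighbour with 1 neighbour above it, and mt-Co3 at 4.25 times with 4 above it. Whether intronic reads were counted is not given in the sources used here. If the whole gene span of the neighbours is taken as length, the ratios rose to between 76.8 and 218 for the 7 members and to between 18.3 and 36.1 for the other 3.

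**Figure D2:**
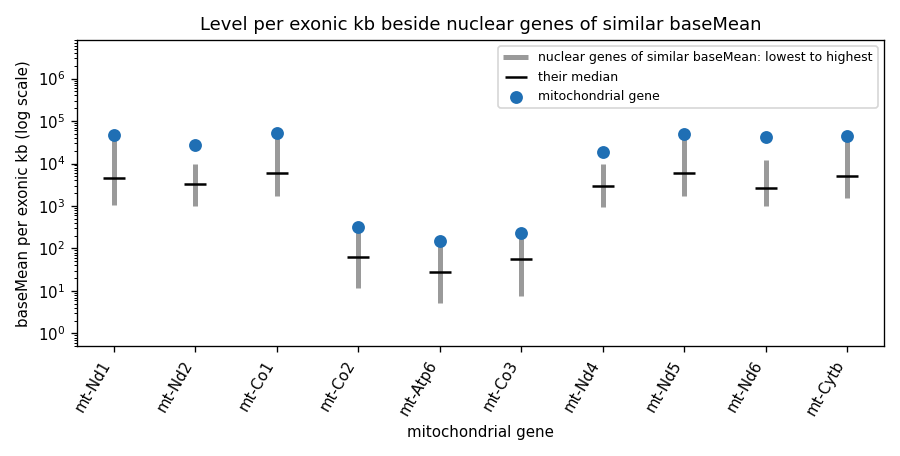
baseMean per exonic kb (log scale) of each member (blue points) beside its nuclear neighbours in baseMean, whose lowest-to-highest range is a grey line and whose median is a black dash. The members lie at 4.25 to 16.6 times the median of their neighbours, and the range for mt-Nd6 ends at 12345 while mt-Nd6 lies at 42804. Since the neighbours were matched on baseMean, these ratios largely restate differences in length.

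Among all 17651 nuclear genes with a baseMean of at least 1, whose median was 207 per exonic kb, none lay above mt-Co1 per exonic kb. mt-Nd1, mt-Nd5, mt-Nd6 and mt-Cytb had 1 nuclear gene above them, mt-Nd2 had 2 and mt-Nd4 had 3. The other members, which have no unique windows, sat in the middle of the table on this scale. Per kb of whole gene span, 0 of the 100 neighbours of each in baseMean lay above it. Ranks among all nuclear genes per kb of span are not given here. Per exonic kb, 42.8% of the nuclear genes lay above mt-Co2, 47.8% above mt-Co3 and 54.1% above mt-Atp6.

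The products of the members are assembled with nuclear-encoded partners, and lists of these were compared per exonic kb. Of the 72 nuclear partners of complexes I, III, IV and V, 70 were above 0, with a median of 999 per exonic kb, and the highest, Cox6b1 of complex IV, lay at 4455. Ndufa13 of complex I and Cox4i1 of complex IV were listed at 0. Both encode subunits that respiring cells use, so the 0 was not taken as a level. Both were left out of the comparisons per kb that follow. All 5 complex I members lay above each of the 36 nuclear complex I genes above 0, whose median was 838 and whose highest was Ndufs4, an accessory subunit, at 4280. Per coding kb, 4 of the 5 lay above all genes with a coding length, since Ndufs4 then lay at 19062 and mt-Nd4 at 18572. mt-Cytb lay above each of the 9 nuclear complex III genes, which ran from Uqcrq at 704 to Uqcr10 at 2282, and was 19.4 times the latter. Per coding kb the highest of these was Uqcrh, at 9296, and mt-Cytb was 4.77 times it.

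In complex IV, mt-Co1 was 11.99 times Cox6b1, and per coding kb 4.13 times the highest nuclear gene, Cox6c, at 12967. mt-Co2 and mt-Co3 lay below each of the 10 nuclear genes above 0, whose median was 2025 per exonic kb and whose lowest was Cox5b, at 522. Per kb of whole gene span the lowest was Cox6c, at 239, above mt-Co3 but below mt-Co2. In complex V, mt-Atp6 lay below all 15 nuclear genes, which ran from Atp5g1, a gene for the proton-carrying ring, at 300 to Atp5c1, for the central stalk, at 3908. Per kb of whole gene span, 1 of the 15, Atp5o, lay lower, at 145 against 151 for mt-Atp6. mt-Co2, mt-Co3 and mt-Atp6 have no unique windows, so how far these low values report their transcription is unknown. The members' summed baseMean was 1.92 times that of the 72 partners, although mt-Co2, mt-Co3 and mt-Atp6 added almost nothing to it. Ndufa13 and Cox4i1 entered the sum of the partners at 0.

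**Figure D3:**
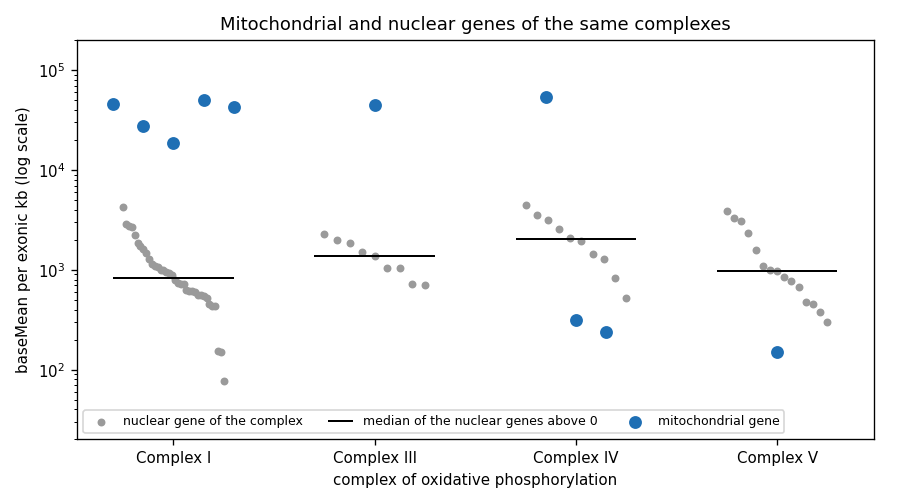
baseMean per exonic kb (log scale) of mitochondrial genes (blue) and nuclear genes (grey) of 4 complexes, with the median of the nuclear genes above 0 as a line. Ndufa13 and Cox4i1, listed at 0, are left out; the 7 members with unique windows lie at 18572 or above, mt-Co2 and mt-Co3 lie at 316 and 237, and mt-Atp6 lies at 151.

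The nuclear genes that transcribe the mitochondrial genome and process its RNA all lay far below the 7 members with unique windows. The list also holds Polg, Polg2, Twnk and Ssbp1, which act in copying its DNA, and these lay far below as well. The 23 genes of this list, with Fastkd5 at 0 included, had a median of 497 per exonic kb. The lowest above 0 was Mterf1a, a gene of the termination factor family, at 60.1. Polrmt, the mitochondrial RNA polymerase, lay at 224, and Tfam, which packages the DNA and starts transcription, at 579. Tfb2m, which opens the promoter with POLRMT, lay at 942 and Tefm, an elongation factor, at 555. Lrpprc, which stabilises mitochondrial mRNAs, was the highest at 1951, and Slirp, its binding partner, lay at 492. Elac2, which cuts tRNA 3′ ends, lay at 711, and Prorp and Trmt10c, which act at the 5′ ends, at 1245 and 430. Pnpt1 and Supv3l1, which degrade mitochondrial RNA, lay at 1298 and 1325. Fastkd5, which acts on messages not flanked by tRNAs, was listed at 0, and whether this 0 reports its transcription is unknown.

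The deposited upstream antisense table (promoter upstream transcripts, PROMPTs) counted RNA on the opposite strand within 1 kb upstream of annotated starts. It was normalized separately from the gene table. The table holds no coordinates, so each window was rebuilt here as the 1000 bases before the annotated start, and the positions below are those of the rebuilt windows. The deposited description says that windows near other coding transcripts were left out, yet the mitochondrial rows were listed. In the compact mitochondrial genome, the kb upstream of 1 gene is the body of another, so a row named for a gene reports RNA opposite its neighbours. The table had 18 mitochondrial rows, of which 11 were above 0. The 18 rows held 20.6% of the summed PROMPT baseMean, against 0.617% of the gene table held by the members. Of the 7 rows at 0, all but that of mt-Nd1 have no base outside other listed windows, so their 0 does not report a level. The 3 highest of all 32253 rows were mitochondrial, named for the tRNA genes mt-Tt, mt-Tw and mt-Ti.

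These 3 rows lie across members. The mt-Tt row (chrM:14289-15288, minus strand) is opposite mt-Cytb over all of its 1000 bases and had a baseMean of 26873. mt-Cytb itself had 44348 per kb in the gene table. The mt-Tw row (chrM:3950-4949, minus strand) is opposite mt-Nd2 and had 14556, beside 27423 per kb for mt-Nd2. The mt-Ti row, over the 955 bases that no other row shares, is opposite mt-Nd1 and had 6366, or 6666 per kb, beside 46111 per kb for mt-Nd1. Because the 2 tables were scaled apart, these pairs stand side by side and were not compared in size. The PROMPTs of the nuclear neighbours of mt-Cytb in baseMean, which lie upstream of gene starts, had a median of 6.94 and reached 379. The mt-Tt row instead lies across the body of mt-Cytb, so these are unlike measures. The highest nuclear row of the table, CT010467.1, had 5803, and the median nuclear row above 0 had 0.813.

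The members' own rows said less, since windows of neighbouring genes overlap and the counting options given do not assign a read to more than 1 feature. Of the 10 members, 4 had a row. mt-Nd5 had a PROMPT baseMean of 704, the 7th highest of the table, from 71 bases that no other row shares. mt-Nd4 had 37.0 from 290 such bases and mt-Co3 had 25.5 from 784, and none of these bases starts a window of 50 found only in the mitochondrial genome. mt-Nd1, with 30 such bases, was listed at 0. Other windows adjoin these bases on both sides, so this 0 was not taken as a level. Per kb over those 71 bases, the PROMPT of mt-Nd5 was 19.9% of the gene level, against nuclear medians of 0.729% over all PROMPTs and 2.01% over those of at least 1. The 71 bases need not be the length the counted reads came from, and the nuclear ratios use whole windows of 1000 bases. These are therefore unlike measures. Over the whole window of 1000 bases, most of which other rows share, it was 1.41%, between these medians. Windows of nuclear genes were not corrected for overlap.

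**Figure D4:**
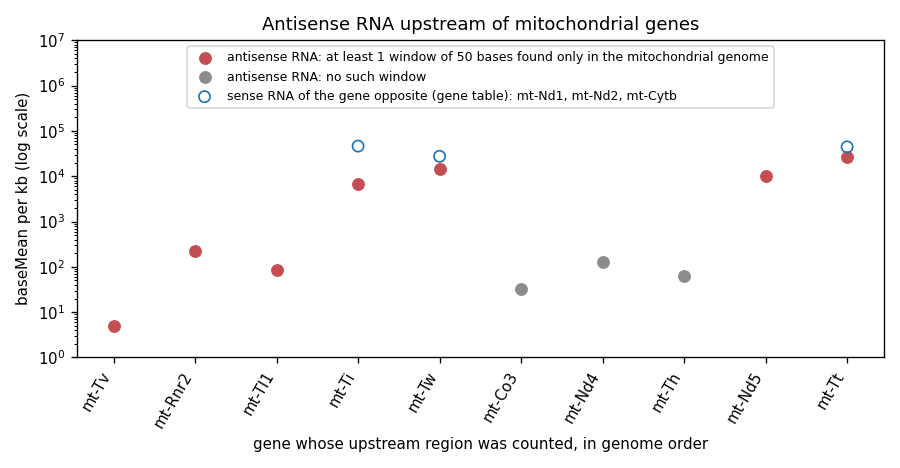
baseMean per kb (log scale) of antisense RNA in the mitochondrial PROMPT rows on the minus strand that were above 0, counted over bases that no other row shares, in genome order, with the sense level of mt-Nd1, mt-Nd2 and mt-Cytb from the separately normalized gene table as open circles. Red points have windows found only in the mitochondrial genome and grey points have none; mt-Tt, opposite mt-Cytb, is highest at 26873, and the 3 grey rows lie between 32.6 and 128.

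Along the minus strand, in the direction in which mt-Nd6 is transcribed, the antisense level was 26873 per kb opposite mt-Cytb, 9921 just upstream of mt-Nd5, 14556 opposite mt-Nd2 and 6666 opposite mt-Nd1. It was 85.8 per kb in the row named for mt-Tl1, 221 in that named for mt-Rnr2 and 4.90 in that named for mt-Tv, all 3 in the region of the ribosomal RNA genes. In the same order, 9 of 75, 20 of 69 and 69 of 69 bases start a window of 50 found only in the mitochondrial genome. The part of discarded reads in these values was not tested. Under the counting options given, a read over more than 1 window is also not assigned. This bears most on rows with few unshared bases, such as these 3 and that of mt-Nd5, and was not tested. Levels per kb of such rows are therefore not comparable with those of rows that share no bases. The rows named for mt-Th, mt-Nd4 and mt-Co3, inside the chromosome 1 copy, lay at 63.5, 128 and 32.6. mt-Nd6, which lies between the first of these positions and mt-Nd5 on the same strand, had 42804 per kb in the gene table. The rows rest on 67 to 1000 bases each, and with no replicate values their order carries no error. The row named for mt-Tp, the one on the plus strand, covers the 877 bases up to the end of the mitochondrial reference sequence and had 1062.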

How the data were processed

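TT-seq was performed by the authors on 18 libraries. After Trim Galore, the authors ran STAR against mm10 and kept reads with 1 alignment. Strand-specific counts were made with featureCounts (the submitters' processing notes name HTSeq) and scaled with DESeq2. The deposited baseMean signal is the mean scaled count per gene or PROMPT over the libraries compared, which the sources used here do not list. The other columns (log2 fold changes, their errors, p-values) are the authors' own comparison and were not used. The tables of enhancer and other non-coding RNAs carry no names and were not used. The labels give 500 nM IAA and 500 mM 4sU, whereas the methods give micromolar doses of both.

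Lengths, strands and genes came from the GRCm38 annotation, in which 21817 of 21859 genes were found; the ends of all 13 mitochondrial coding genes were the same in RefSeq. Copies of the mitochondrial genome were found with blastn 2.17.0 (word size 28) on the chromosomes. Sequences not placed on a chromosome were not searched. Windows of 50 bases were called unique when no exact match was found in these copies or in the rest of the mitochondrial genome, on both strands. Chromosome sequence outside the copies was not searched window by window. The PROMPT table holds no coordinates, so its windows were rebuilt from annotated starts. Levels are baseMean divided by exonic kb. Python 3.11.15, numpy 2.4.6, pandas 2.3.3 and matplotlib 3.10.9 were used, and the window search was tested on simulated data.

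The members, the complex and processing lists and the markers were chosen with earlier results of these data known. Named genes were all members, the other mitochondrial rows, the highest and lowest partner of each complex, the processing list, the nearest nuclear genes of the highest and lowest member, and Pou5f1, Sox2 and Nanog. Kat6b, Cmss1, Tfcp2l1, CT010467.1 and the fibroblast markers were named after their values were seen.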

Additional observations from a re-analysis of the deposited data

How the results depend on the processing

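The spread of level per kb over the 10 members was 353-fold and became 330-fold over bases not overlapped by another gene. Over the 7 members with unique windows it was 2.88-fold, 2.86-fold over non-overlapped bases, and 4.25-fold, 3.60-fold, 2.98-fold and 2.64-fold per unique kb with windows of 36, 50, 75 and 100 bases. Coding bases in place of all exonic bases left these spreads at 352-fold and 2.88-fold. The members' share of summed baseMean was 0.617% and 0.622% without the 5 highest other genes. The median ratio to similar nuclear genes was 8.66 for the 7 members, 7.66 with 25 neighbours on each side, 9.35 with genes within 1.5 times and 137 per whole gene span; for the other 3 it was 4.88, and 4.53, 4.74 and 25.1 in the same order, with 4.96 over non-overlapped bases. The median ratio to the partner complexes was 35.2 for the 10 members, 21.3 with the mean of the partners, 10.1 per coding kb and 150 per gene span; for the 7 it was 44.5, 30.3, 12.7 and 189. The PROMPT ratio of mt-Nd5 over the nuclear median was 1.94, 4.64 without division by length, and 0.704 against nuclear PROMPTs of at least 1, all over the whole window; over the bases in no other row it was 27.3, and 9.92 against nuclear PROMPTs of at least 1. The main ratios to the partner complexes, 35.2 and 44.5, include the partners listed at 0, and leaving these out gave 35.1 and 44.4. Gene span as length, the unshared bases and the removal of partners at 0 were chosen after seeing the data. The unshared bases of the mt-Nd5 window, 71, need not be the length its counted reads came from. Differences across these settings reflect the lengths and genes each setting uses. Ratios to similar nuclear genes largely restate differences in length, since the match was on baseMean. Values over all 10 members include the 3 without unique windows. No paired analysis was possible because the tables hold 1 mean over libraries, and for the same reason no library could be left out. Depth per library is unknown here, so levels near 0 have no stated limit.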
